A study of Homo sapiens with 11 samples.

Results

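IMR32 neuroblastoma cells collected 72 hours after transduction with a lentivirus carrying a short hairpin RNA directed at MYCN were compared with 5 reference samples of the same line. The comparison used 7 of the 11 expression arrays of the series, chosen by their labels alone: 2 arrays of the MYCN hairpin at 72 hours (A and B), against 2 arrays of cells collected at 0 hours without virus and 3 arrays of cells given a virus with the control hairpin SHC002, 1 each at 24, 48 and 72 hours. The remaining 4 arrays, of the MYCN hairpin at 24 and 48 hours, served to place the 72 hour state in time. All groups share the IMR32 background, a human line with amplified MYCN, grown in serum-containing medium, and every hairpin array comes from 1 hairpin in 1 line. The label does not say that arrays A and B came from separate cultures, so the p-values measure the spread between these samples, which may be technical.

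MYCN encodes a basic helix-loop-helix transcription factor that binds E-box DNA as a partner of MAX. In neuroblastoma, a childhood tumour of the sympathetic nerve lineage, amplified MYCN is known for keeping cells in the division cycle, for raising the synthesis of ribosomes and nucleotides and for holding back neuronal differentiation. ID proteins, which capture other basic helix-loop-helix factors, are a known part of that block. The question put to the 72 hour arrays was which genes stood apart from the references late after transduction.

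Of the array measures, the median and a spike-in signal were higher on both 72 hour hairpin arrays than on every reference, while the GAPDH ratio overlapped. Median signals were 16.4 and 16.7 on the 72 hour hairpin arrays and 14.9 to 15.7 on the references, and the ratio of 3' to 5' GAPDH control signals lay between 0.97 and 1.07 on all 11 arrays. The hairpin pair had a correlation of 0.994 across genes, which are not independent replicates, and the SD of its log2 differences was 0.18, against 0.17 for the pair without virus. Spike-in RNAs added before labelling gave a mean signal of 117.9 on array A and 97.4 on array B, against 82.1 to 91.6 on the references, and the part of this in the results was not tested. Each array had been brought to a common mean signal, which hides any shift in the amount of RNA per cell. A lower signal can mean fewer cells with the transcript or less of it per cell, and these cannot be told apart. Culture time and virus at 72 hours are represented by 1 control array. Differences are given on the scale of log2(signal + 16), which understates those of dim genes, with limma's SE after the ± sign. Genes in the dimmest 40 percent, under a mean signal of about 14.9 (the dim filter), were not tested, and a gene was called at a limma adjusted p under 0.05.

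The targeted gene was examined first. On its brightest probe set, MYCN had signals of 5624 and 4946.5 on the hairpin arrays, against 5040.1 and 4507 without virus and 5332, 5389.7 and 5055 with control virus at 24, 48 and 72 hours. Array A was above every reference and array B within their range, and the difference did not pass (log2 0.06 ± 0.09, limma adjusted p = 0.569). Quantile normalization moved this difference to 0.21 and past the threshold, as higher (limma adjusted p = 0.00418 over all probe sets). The next brightest MYCN probe set gave 651 and 796, against 371 and 355 without virus and 406, 520.1 and 370.4 with control virus at 24, 48 and 72 hours. Both hairpin arrays were above every reference on it (log2 0.82 ± 0.14, limma adjusted p = 0.00165 over all probe sets). On the next probe set the signals were 339 and 404, against 216 to 290.2 in the references (log2 0.62 ± 0.11, limma adjusted p = 0.00245). The last of the 4 bright probe sets, at 44.0 and 60.9 against 22.6 to 46.4, did not pass (log2 0.37 ± 0.19, limma adjusted p = 0.226). The other 6 MYCN probe sets had mean signals under the dim filter, and none of the 10 was called lower. On the brightest probe set the earlier arrays of the hairpin showed no fall. They read 5488.1 and 4567.4 at 24 hours and 5241.4 and 5316.9 at 48 hours, against 4507 to 5389.7 in the references. Dimmer probe sets differed from this. At 24 hours the 2 probe sets called higher read 254 and 292, and 130.2 and 162, below all 5 references on each, and at 48 hours they read 319 and 624, and 183 and 354. These earlier values are a description, with no test here. With the 72 hour control array as the only reference the 2 probe sets differed by 0.93 ± 0.31 and 0.68 ± 0.31, at least as much as against all 5, but 0 of the 10 passed (limma adjusted p = 0.0996 and 0.214 for these 2). By the same test, with the arrays without virus as the only reference 1 was higher and 1 of the 6 dim ones lower. The site of the hairpin on the transcript and the MYCN protein were not measured here. Because no lower MYCN mRNA was found at 72 hours, the arrays are called labelled shMYCN, and every direction below rests on that label.

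**Figure D1:**
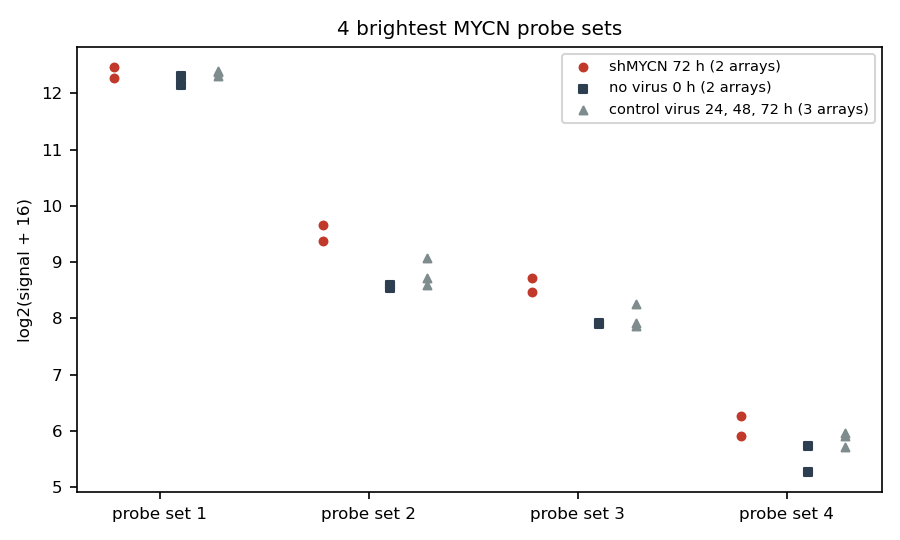
Signals of the 4 brightest MYCN probe sets as log2(signal + 16) on each array, for the arrays labelled shMYCN at 72 hours (circles), the arrays without virus (squares) and the control virus arrays (triangles). The groups overlap on the brightest probe set, and both shMYCN arrays are above all 5 references on the next 2.

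More genes differed than not. Of 11865 genes tested, 6690 (56.4 percent) passed limma's test at an adjusted p of 0.05, with 3674 higher (31.0 percent) and 3016 lower (25.4 percent). Most differences were small, with a median log2 fold change of 0.48 among the genes that rose and -0.46 among those that fell. At least 2-fold differences were found for 731 genes (6.16 percent), 375 higher (3.16 percent) and 356 lower (3.0 percent). Without any variance model, both arrays labelled shMYCN lay above all 5 references for 4033 genes (34.0 percent) and below them for 3277 (27.6 percent). The SD of the shMYCN minus reference differences over genes was 0.51, against 0.20 for the 72 hour control array minus the arrays without virus.

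The balance of rises and falls depended on the scaling. As deposited, 54.9 percent of the called genes were higher, while median scaling gave 2579 higher and 3925 lower (39.7 percent higher) and moved the median log2 of all genes to -0.07, against 0.04 as deposited. With the 72 hour control array as the only reference, 4028 genes passed, 2157 higher and 1871 lower. That reference is 1 array, so the SEs are larger, and fewer calls against it do not by themselves mean smaller differences. Quantile normalization gave 3502 higher and 3175 lower. The counts of a gene list under another setting are to be read beside these counts of all 11865 genes.

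**Figure D2:**
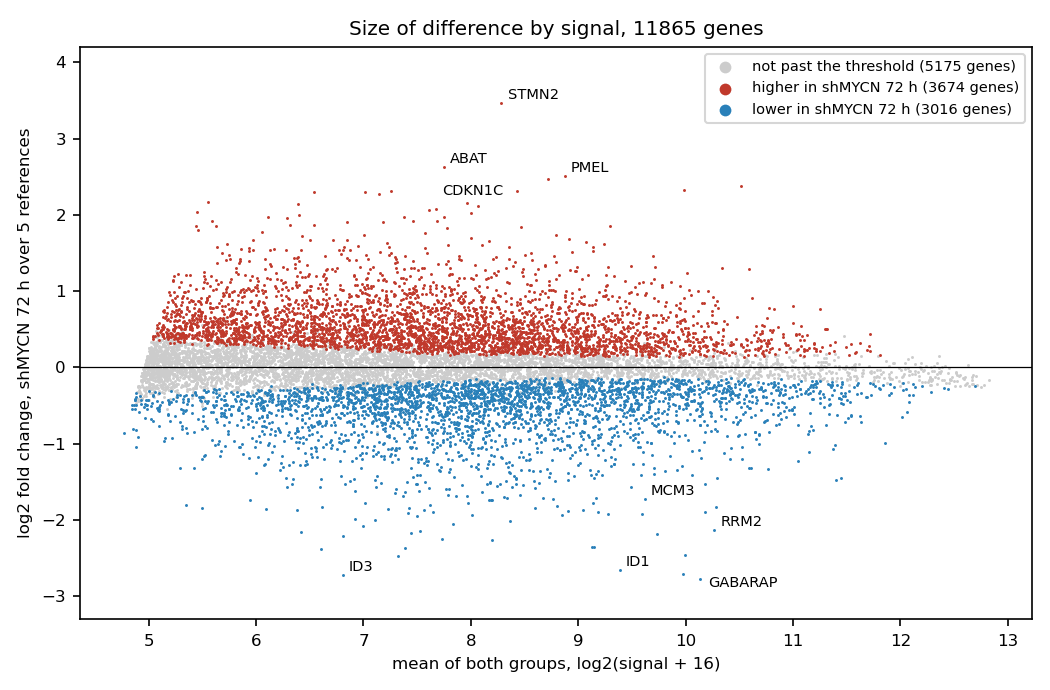
Log2 fold change of shMYCN 72 h over the 5 references (vertical axis) against the mean log2(signal + 16) of both groups (horizontal axis) for 11865 genes, coloured by limma call. STMN2 stands at the top at 3.46 and GABARAP at the bottom at -2.77, and called genes of both signs occur over most of the signal range.

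The largest rise was that of STMN2, a stathmin that regulates microtubules in growing neurites. STMN2 had signals of 1106 and 932, against 90.2 and 80.5 without virus and 81.0, 67.4 and 70.3 with control virus at 24, 48 and 72 hours. Both arrays labelled shMYCN were far above every reference (log2 3.46 ± 0.10, limma adjusted p = 1.84e-10). ABAT, the mitochondrial transaminase that degrades GABA, had 552 and 483, against 80.7 and 59.1 without virus and 72.1, 67.5 and 72.6 with control virus at 24, 48 and 72 hours (log2 2.63 ± 0.10, limma adjusted p = 1.22e-09). PMEL, a structural protein of melanosomes, had 1055 and 1129, against 163 and 128 without virus and 190.0, 187 and 245 with control virus at 24, 48 and 72 hours. The 72 hour control array was the highest of the PMEL references and still well below the arrays labelled shMYCN (log2 2.51 ± 0.16). ADGRG1, an adhesion receptor of neural progenitors, had 973 and 965, against 151 and 127 without virus and 138, 196 and 210.2 with control virus at 24, 48 and 72 hours (log2 2.47 ± 0.15).

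ENPP2, which encodes autotaxin, the enzyme that makes lysophosphatidic acid outside cells, had 3863.5 and 2789, against 565.5 to 684 in the references (log2 2.37 ± 0.11). DCX, the microtubule protein doublecortin of migrating neurons, had 2267 and 2209.5, against 395 and 359 without virus and 383.5, 452 and 615 with control virus at 24, 48 and 72 hours. The groups did not overlap for DCX although its control virus signals were higher at later hours, and the log2 fold change was 2.33 ± 0.15. CDKN1C, the imprinted gene of the cyclin-dependent kinase inhibitor p57, had 746 and 756, against 130.2 and 133 without virus and 137, 139.9 and 155 with control virus at 24, 48 and 72 hours. CDKN1C references lay close together and far below both arrays labelled shMYCN, at 4.96-fold (log2 2.31 ± 0.07, limma adjusted p = 3.12e-10). MAP6, which stabilises microtubules, had 499 and 519, against 88.7 to 118 (log2 2.15 ± 0.10), and CRABP2, which carries retinoic acid to its receptors, had 534 and 527, against 75.3 to 167 (log2 2.11 ± 0.21).

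The remaining 6 of the 15 largest rises were those of the methyl-CpG-binding family gene MBD5 (log2 2.32), the lectin gene CHODL (2.30), the galactosyltransferase gene B3GALT2 (2.30), the proteoglycan gene SPOCK1 (2.27), JAKMIP3 (2.17) and the non-coding LINC01828 (2.14). JAKMIP3 had 87.2 and 79.0, against 3.1 to 9.1 in the references, which lie under the dim filter of about 14.9. MBD5 is uncertain, because its other 2 probe sets, both dimmer, gave log2 fold changes of -0.08 and -0.07 that did not pass.

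The largest fall was that of GABARAP, an ATG8 family protein of the autophagosome membrane. GABARAP had signals of 404 and 421, against 2975 and 2796 without virus and 3155, 2989.7 and 2693 with control virus at 24, 48 and 72 hours (log2 -2.77 ± 0.07, limma adjusted p = 7.84e-11). The groups were far apart, and the references differed little among themselves. ID3, which captures basic helix-loop-helix factors, had 25.5 and 28.5, against 311 and 326 without virus and 329, 248 and 163 with control virus at 24, 48 and 72 hours (log2 -2.72 ± 0.20, limma adjusted p = 2.64e-07). ID1, of the same family, had 265 and 230.0, against 1769 and 1827 without virus and 1898, 1868 and 1047 with control virus at 24, 48 and 72 hours (log2 -2.66 ± 0.18, limma adjusted p = 1.17e-07). For ID1 and ID3 the 72 hour control array was the lowest reference, and the arrays labelled shMYCN differed from it by -2.02 for ID1 and -2.06 for ID3 on the log2 scale.

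Several of the largest falls belonged to mitochondria. NDUFB2, a subunit of respiratory complex I, had 371 and 384, against 2532.5 and 2453 without virus and 2711, 2673 and 2384 with control virus at 24, 48 and 72 hours (log2 -2.70 ± 0.06). One of the other NDUFB2 probe sets gave -3.02 and the second, a much dimmer one, gave 0.06, which did not pass. TIMM17A, part of the translocase that imports proteins into mitochondria, had 453 and 386, against 2312 to 2489 (log2 -2.46 ± 0.07), and COX5B, a subunit of cytochrome c oxidase, had 370.1 and 396, against 1566 to 1951.5 (log2 -2.18 ± 0.08). These 3 genes had no overlap between groups, as the choice of the largest changes required.

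MAF1, a repressor of RNA polymerase III, had 58.3 and 45.2, against 346.5 to 377.5 (log2 -2.48 ± 0.08), and OIP5, needed to load the centromere histone CENP-A, had 28.8 and 24.8, against 189.9 to 224 (log2 -2.38 ± 0.09). RAP1A, a small GTPase of adhesion signalling, had 239 and 226, against 1292, 1254, 1303.5, 1104 and 1304 in the references, and the lowest of these was the 48 hour control array (log2 -2.35 ± 0.07). PPP4C, a phosphatase catalytic subunit, gave -2.26, ATP6V1D, a subunit of the proton pump, -2.25, and the nucleotidase-like NT5DC2 -2.35. The small membrane protein gene SMCO4 gave -2.37, EPDR1 -2.21 and NKAIN1 -2.17. Among 41 genes named for the size of their change at 72 hours, 22 had other probe sets, 57 in number, and 50 of these had the sign of the probe set used. Of the 42 that were bright, 39 had that sign and 37 of the 39 were also called.

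**Figure D3:**
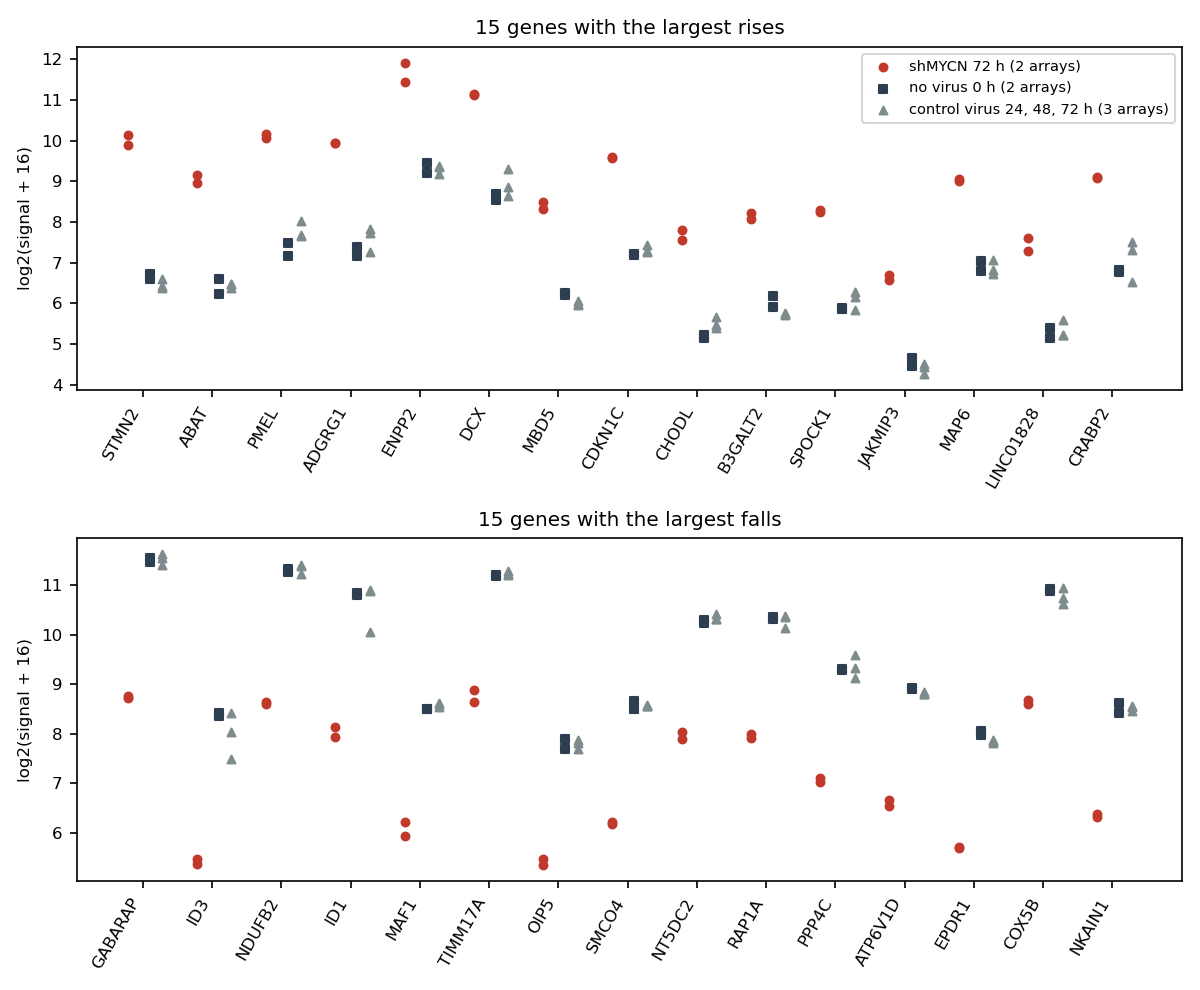
Values of the 15 largest rises (upper panel) and 15 largest falls (lower panel) as log2(signal + 16) on each array, with arrays labelled shMYCN at 72 hours as circles, no virus as squares and control virus as triangles. No shMYCN array overlaps a reference for any of these 30 genes, which were chosen for that, and the control triangles spread most for CRABP2, ID3, ID1 and DCX.

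The MYC network, MAX with its partner and antagonist proteins, moved in few members. Of 10 members tested, 2 rose and 1 fell (20 and 10 percent, against 31.0 and 25.4 percent of all genes). MXI1, an antagonist that pairs with MAX, had 1219.5 and 1059.6, against 597 and 545 without virus and 582, 619 and 756 with control virus at 24, 48 and 72 hours (log2 0.87 ± 0.10, limma adjusted p = 1.38e-05). The 72 hour control array was the highest MXI1 reference and remained below both arrays labelled shMYCN. MYCNOS, transcribed antisense to MYCN, rose by 0.41 on the log2 scale, with signals of 133 and 167 against 100.3 to 119. Which strand its probe set reads was not checked here. The MYCNOS call was lost without array B (log2 0.26) and against the 72 hour control array alone (0.29 ± 0.17). MLX, the partner of the glucose-responsive branch, fell (log2 -0.42 ± 0.06). MAX itself had 851 and 767, against 707 to 771, and did not pass (0.10) except after quantile normalization (0.14, limma adjusted p = 0.0431). MXD1 (0.25), MXD3 (-0.26), MLXIP (-0.12), MNT (-0.01) and MYCL (0.06) did not pass either. MXD1 passed as higher with the mean of all probe sets (0.33) and with a variance model without trend (0.25, limma adjusted p = 0.0273), and under median scaling MLXIP passed as lower (-0.24).

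Genes for origin licensing and DNA replication, which mark and copy the genome once per cycle, fell together. Of 50 members tested, 45 fell and 0 rose, against 25.4 percent lower and 31.0 percent higher among all genes, and the median log2 was -0.61 (all genes 0.04). This list, like all others here, was chosen with earlier results of these data known, so such shares are a description. MCM3, a subunit of the replicative helicase, had 411 and 421, against 1457 and 1383 without virus and 1353.5, 1426 and 1451 with control virus at 24, 48 and 72 hours (log2 -1.73 ± 0.05, limma adjusted p = 2.95e-10). MCM5, another helicase subunit, had 274 and 297, against 1116 and 1092 without virus and 1124, 1159 and 1026 with control virus at 24, 48 and 72 hours (log2 -1.89 ± 0.06). ORC1, the origin recognition subunit that appears late in G1, had 83.5 and 95.6, against 280.1 to 302 (log2 -1.53 ± 0.07). ORC3 gave -1.27 and POLA2, the accessory subunit of the priming polymerase, -1.45. In all 5 of these genes, named for their small p, both arrays labelled shMYCN lay below every reference, which that choice favours. Over the list this held for 44 of the 50 members, beside 27.6 percent of all genes tested.

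E2F factors activate replication genes through promoter sites such as TTTGGCGC, TTTCCCGC and TTTCGCGC. Promoter words were searched in 8 sets, each counted over all 45 gene lists, and the counts are a description with no test. At least 1 of these 3 words, searched on both strands from 250 bases before to 50 bases after the gene start, was present in 19 of 44 replication promoters available (43.2 percent), in 4.63 percent of the promoters of all genes tested and in 2.79 percent of all 27305 promoters in the RefSeq table. Among genes that rose it was in 3.12 percent, and among genes that fell in 6.97 percent. A second E2F set, TTCCCGCC and TTGGCGCC, which can overlap the first, was in 16 of the 44 replication promoters (36.4 percent), 8 of 20 DNA repair promoters and 6.9 percent of all genes tested. The 3 promoters below belong to replication genes described above, are RefSeq sequence of GRCh38.p14 read along the gene's own strand, and carry the matched word in capitals. MCM3 lies at chr6:52284693-52284992 on the minus strand, with words starting at -174 and -4 relative to the gene start, ORC3 at chr6:87589885-87590184 on the plus strand with the word at -12 in its reverse complement, and POLA2 at chr11:65261712-65262011 on the plus strand with the word at -53.
MCM3: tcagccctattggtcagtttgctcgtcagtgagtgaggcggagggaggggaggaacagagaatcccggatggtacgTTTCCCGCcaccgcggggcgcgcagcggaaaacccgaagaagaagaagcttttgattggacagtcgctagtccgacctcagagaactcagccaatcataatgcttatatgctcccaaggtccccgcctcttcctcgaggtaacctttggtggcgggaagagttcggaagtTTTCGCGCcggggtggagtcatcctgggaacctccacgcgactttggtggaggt
ORC3: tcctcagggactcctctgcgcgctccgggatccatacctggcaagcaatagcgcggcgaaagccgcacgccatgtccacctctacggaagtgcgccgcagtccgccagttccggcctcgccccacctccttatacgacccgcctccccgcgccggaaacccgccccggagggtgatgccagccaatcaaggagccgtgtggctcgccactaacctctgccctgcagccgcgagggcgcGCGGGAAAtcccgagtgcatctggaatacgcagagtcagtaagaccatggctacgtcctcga
POLA2: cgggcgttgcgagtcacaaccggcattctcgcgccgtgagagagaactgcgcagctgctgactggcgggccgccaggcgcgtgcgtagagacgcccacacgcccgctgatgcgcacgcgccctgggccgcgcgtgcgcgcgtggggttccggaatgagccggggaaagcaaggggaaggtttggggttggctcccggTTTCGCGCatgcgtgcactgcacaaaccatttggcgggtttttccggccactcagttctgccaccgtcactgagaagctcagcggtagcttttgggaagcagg

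The G1/S switch, in which cyclin E and E2F commit a cell to replication, moved the same way. Of 22 members tested, 16 fell and 3 rose (72.7 and 13.6 percent, against 25.4 and 31.0 percent of all genes, median -0.62). CCNE2, a cyclin E gene, had 72.5 and 70.0, against 384 and 394 without virus and 346, 361 and 372 with control virus at 24, 48 and 72 hours (log2 -2.15 ± 0.07, limma adjusted p = 3.12e-10), and the other cyclin E gene CCNE1 gave -1.16 ± 0.08. TFDP1, the DNA-binding partner of E2F proteins, had 307 and 299, against 1142 to 1243 (log2 -1.92 ± 0.05). CDC25A, the phosphatase that activates CDK2, gave -1.43 ± 0.07, and E2F5, a repressive E2F, -1.64 ± 0.07. E2F5 had reached its difference early, with -1.48, -1.38 and -1.64 after 24, 48 and 72 hours.

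CDK inhibitors and pocket proteins, the brakes of the same switch, included rises beside CDKN1C. Of 14 members tested, 7 rose and 2 fell (50 and 14.3 percent, against 31.0 and 25.4 percent of all genes, median 0.22). The median was 0.12 under median scaling (all genes -0.07), with 6 higher and 4 lower. It was 0.05 against the 72 hour control array alone (all genes 0.03), and that array exceeded the arrays without virus by a median of 0.10. CCNG2, an atypical cyclin of resting cells, had 1081 and 1150.4, against 405 and 409 without virus and 382, 443 and 559.8 with control virus at 24, 48 and 72 hours (log2 1.32 ± 0.11). RBL2, the pocket protein p130 of resting cells, had 531.5 and 591, against 252.5 to 337 (log2 0.97 ± 0.10), and the antiproliferative gene BTG1 had 1270.5 and 1340.0, against 713 to 823 (log2 0.74 ± 0.06). RB1, the retinoblastoma gene, fell instead, with 278.5 and 256.5, against 345 to 419 (log2 -0.53 ± 0.08).

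Mitosis genes, which build the spindle and separate chromosomes, also fell. Of 56 members, 45 fell and 2 rose (80.4 and 3.57 percent, against 25.4 and 31.0 percent of all genes), with a median of -0.35. The median was -0.37 when the 72 hour control array was the only reference. HJURP, the chaperone of CENP-A, had 152 and 163, against 388 to 422 (log2 -1.26 ± 0.06). ANLN, which organises the cytokinetic ring, gave -1.19 ± 0.07, NCAPH of the condensin complex -1.14 ± 0.06 and ESPL1, the separase that cuts cohesin, -1.07 ± 0.06. NCAPH and ESPL1 had been near the references at 24 hours, at 0.05 each.

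DNA repair genes, many of them active at replication forks, also fell. Of 24 tested, 19 fell and 0 rose (79.2 and 0 percent, against 25.4 and 31.0 percent of all genes, median -0.64). MSH6, a sensor of mismatched bases, had 535.5 and 554, against 1390.2 and 1364 without virus and 1456, 1379 and 1509.8 with control virus at 24, 48 and 72 hours (log2 -1.36 ± 0.06). The Fanconi anaemia gene FANCI gave -0.95 ± 0.06, the helicase gene BRIP1 -0.89 ± 0.06 and BARD1, the partner of BRCA1, -0.97 ± 0.07. All of these, named for their small p, had arrays labelled shMYCN below every reference, which that choice favours. Over the list this held for 19 of the 24 members, beside 27.6 percent of all genes tested.

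Nucleotide and polyamine synthesis, which supplies dividing cells, had 24 of 32 members lower and 2 higher (median -0.62). That is 75 and 6.25 percent, beside 25.4 and 31.0 percent of all genes. RRM2, the small subunit of ribonucleotide reductase, had 577 and 566, against 2605 and 2456 without virus and 2554, 2658.5 and 2514 with control virus at 24, 48 and 72 hours. The references lay within a narrow band and both arrays labelled shMYCN far below it (log2 -2.13 ± 0.06, limma adjusted p = 1.09e-10). IMPDH2, the entry enzyme of guanine nucleotide synthesis, had 751 and 734, against 1912 to 2241 (log2 -1.44 ± 0.07). ADSL of purine synthesis gave -1.41 ± 0.05, PRPS2, which makes phosphoribosyl pyrophosphate, -1.31 ± 0.06, and AZIN1, which protects ornithine decarboxylase, -1.12 ± 0.05.

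Ribosome biogenesis genes, which process ribosomal RNA and assemble subunits in the nucleolus, had 38 of 51 members lower and 1 higher (median -0.34). That is 74.5 and 1.96 percent, beside 25.4 and 31.0 percent of all genes. Against the 72 hour control array alone the median was -0.31. LYAR, a nucleolar growth factor, had 65.0 and 60.4, against 273 and 278 without virus and 264, 266 and 268 with control virus at 24, 48 and 72 hours (log2 -1.86 ± 0.07, limma adjusted p = 8.70e-10). NOC4L of the small subunit pathway gave -1.18 ± 0.07. UTP18, a component of the small subunit processome, had 922.5 and 924, against 1637 to 1697 (log2 -0.83 ± 0.05), PNO1, a late assembly factor of that subunit, 318.5 and 335, against 558 to 599 (log2 -0.79 ± 0.06), and UTP4, also of the processome, 813 and 784, against 1261 to 1349.7 (log2 -0.69 ± 0.06).

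CACGTG is the E-box best known for binding by MYC and MAX. In the same promoter window it was present in 18 of 45 ribosome biogenesis promoters and in 7 of 44 replication promoters (15.9 percent), beside 10.6 percent over all genes tested and 7.43 percent over all 27305 promoters. The E2F words were in 2 of the 45 ribosome biogenesis promoters (4.44 percent). Over all genes, CACGTG was in 12.8 percent of promoters of genes that fell, 10.2 percent of those that rose and 9.62 percent of those not called. Among genes at least 2-fold lower it was in 10.3 percent, no more than among all genes tested, and among those at least 2-fold higher in 8.73 percent. It was also in 9 of 29 lysosome promoters (31.0 percent) and in 4 of 13 interferon promoters (30.8 percent). The other 5 sets separated the genes that rose and fell less than the first E2F set did: TGACGTCA was in 3.22 percent of the genes that rose and 4.25 percent of those that fell, CAGCTG in 17.5 and 15.8 percent, TATAAAA in 2.06 and 1.42 percent, the NRF1 motif in 2.69 and 2.68 percent and the SRF motif in 0.133 and 0.157 percent. The promoters of 3 falling genes are shown with CACGTG in capitals, from the same RefSeq table of GRCh38.p14, all on the plus strand. UTP18 lies at chr17:51260296-51260595 with the word starting at -89 and 4, PNO1 at chr2:68157638-68157937 with the word at 9, and UTP4 at chr16:69132399-69132698 with the word at -16.
UTP18: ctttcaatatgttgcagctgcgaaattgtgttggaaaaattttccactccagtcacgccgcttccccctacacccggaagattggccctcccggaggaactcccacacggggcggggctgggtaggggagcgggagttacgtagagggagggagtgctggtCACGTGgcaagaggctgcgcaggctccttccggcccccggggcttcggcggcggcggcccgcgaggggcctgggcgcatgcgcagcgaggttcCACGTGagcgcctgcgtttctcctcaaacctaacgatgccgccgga
PNO1: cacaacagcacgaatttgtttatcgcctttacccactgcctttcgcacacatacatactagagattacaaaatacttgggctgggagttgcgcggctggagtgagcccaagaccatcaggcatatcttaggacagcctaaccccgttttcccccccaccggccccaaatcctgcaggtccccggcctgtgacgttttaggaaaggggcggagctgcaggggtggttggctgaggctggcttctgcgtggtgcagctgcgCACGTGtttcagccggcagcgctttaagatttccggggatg
UTP4: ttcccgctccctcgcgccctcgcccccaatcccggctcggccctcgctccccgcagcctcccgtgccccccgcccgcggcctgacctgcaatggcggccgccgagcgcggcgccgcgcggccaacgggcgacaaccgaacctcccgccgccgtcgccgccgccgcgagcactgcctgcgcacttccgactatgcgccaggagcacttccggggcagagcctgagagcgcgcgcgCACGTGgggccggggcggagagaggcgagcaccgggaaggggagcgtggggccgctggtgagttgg

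Ribosomal protein genes, in contrast to the factors that assemble them, had no direction that held across scalings. Of 43 tested, 2 rose and 0 fell (4.65 and 0 percent, against 31.0 and 25.4 percent of all genes, median -0.09). Quantile normalization gave 16 higher and 0 lower, and median scaling 1 higher and 17 lower. RPL36 had 3038 and 2936, against 2148 to 2559.6 (log2 0.33 ± 0.07), and lost its call with the mean of all probe sets (0.04). RPS25 gave 0.22 ± 0.07 and lost its call under several alternatives, median scaling (0.09) and leaving out array A (0.15) among them. RPLP1 (-0.16), RPL30 (-0.18) and RPS14 (-0.20) overlapped between groups, and without array A RPL30 (-0.33) and RPS14 (-0.38) passed as lower.

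Translation factors and tRNA synthetases had 26 of 45 members lower and 3 higher (median -0.24). That is 57.8 and 6.67 percent, beside 25.4 and 31.0 percent of all genes. Against the 72 hour control array alone the median was -0.22. EIF2S2, a subunit of the factor that delivers initiator tRNA, had 675 and 609.6, against 2363 and 2243 without virus and 2401, 2415 and 2231 with control virus at 24, 48 and 72 hours (log2 -1.84 ± 0.06, limma adjusted p = 3.97e-10). EIF6, which keeps ribosomal subunits apart, gave -1.04 ± 0.06, and EIF2B3, part of the exchange factor of EIF2, -0.80 ± 0.06. IARS1 and YARS1, which charge tRNA with isoleucine and tyrosine, gave -1.32 ± 0.06 and -1.12 ± 0.06.

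Mitochondrial genes fell in part. Of the mitochondrial ribosome and DNA upkeep list, 29 of 58 were lower and 3 higher (median -0.19). That is 50 and 5.17 percent, beside 25.4 and 31.0 percent of all genes. Against the 72 hour control array alone the median was -0.15. TFB2M, a mitochondrial transcription factor, had 314 and 312, against 777 and 776.5 without virus and 812, 778 and 775 with control virus at 24, 48 and 72 hours (log2 -1.28 ± 0.05). TFAM, which packs mitochondrial DNA, gave -0.84 ± 0.06, TIMM50 of the import machinery -0.84 ± 0.07 and the ribosomal protein gene MRPL42 -0.73 ± 0.05. Of the respiratory chain list, 26 of 48 were lower and 3 higher (54.2 and 6.25 percent, beside the same shares of all genes, median -0.18). Its median was -0.15 against the 72 hour control array alone. Beyond NDUFB2 and COX5B, the complex I subunit NDUFS1 had 242 and 229, against 437 to 497.5 (log2 -0.96 ± 0.06). NDUFA8 gave -0.67 ± 0.05 and NDUFA2 -0.65 ± 0.06, the last of these losing its call with the mean of all probe sets (-0.13).

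Glycolysis genes had 16 of 23 members lower and 2 higher (69.6 and 8.7 percent, against 25.4 and 31.0 percent of all genes, median -0.42). PFKM, a phosphofructokinase isoform, had 206 and 240.2, against 824 and 805 without virus and 874, 815 and 795.5 with control virus at 24, 48 and 72 hours (log2 -1.81 ± 0.07). ENO1, the widely expressed enolase, had 1557 and 1511, against 3143 to 3600.2 (log2 -1.11 ± 0.07), whereas ENO2, the neuronal enolase, had 654 and 631, against 219 to 309 (log2 1.35 ± 0.11). The 2 enolase isoforms thus moved in opposite directions, each with no overlap between groups, which their choice by small p favours. PDK3, which restrains pyruvate dehydrogenase, gave -1.29 ± 0.07, and the hexokinase HK1 -0.89 ± 0.06.

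RNA splicing and protein turnover genes fell by smaller amounts. Splicing factors had 36 of 48 members lower and 1 higher (75 and 2.08 percent, against 25.4 and 31.0 percent of all genes, median -0.29). Their median was -0.26 against the 72 hour control array alone. SF3A3 of the U2 particle had 248 and 268, against 554 to 584.5 (log2 -1.11 ± 0.06), WDR77, a partner of the arginine methyltransferase PRMT5, gave -1.07 ± 0.06, and PRPF4, PRPF19 and SF3A2 lay between -0.64 and -0.71. Proteasome genes had 21 of 28 members lower and 0 higher (75 and 0 percent, beside the same shares of all genes, median -0.31). Their median was -0.30 against the 72 hour control array alone. PSMC3, an ATPase of the cap, had 473 and 500.0, against 1089.9 to 1277 (log2 -1.27 ± 0.06), and PSMC1, PSMC2, PSMD1 and PSMD2 lay between -0.71 and -0.47. Chaperonin and heat shock genes had 9 of 22 members lower and 0 higher (40.9 and 0 percent, median -0.19). Their median was -0.17 against the 72 hour control array alone. Under median scaling 18 were lower, where 3925 of all 11865 genes were lower. CCT7, a chaperonin subunit, gave -1.05 ± 0.07, CCT2 -0.64 ± 0.07 and the cochaperone BAG2 -0.77 ± 0.07, while HSPH1 and DNAJA1 gave -0.47 and -0.49.

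**Figure D4:**
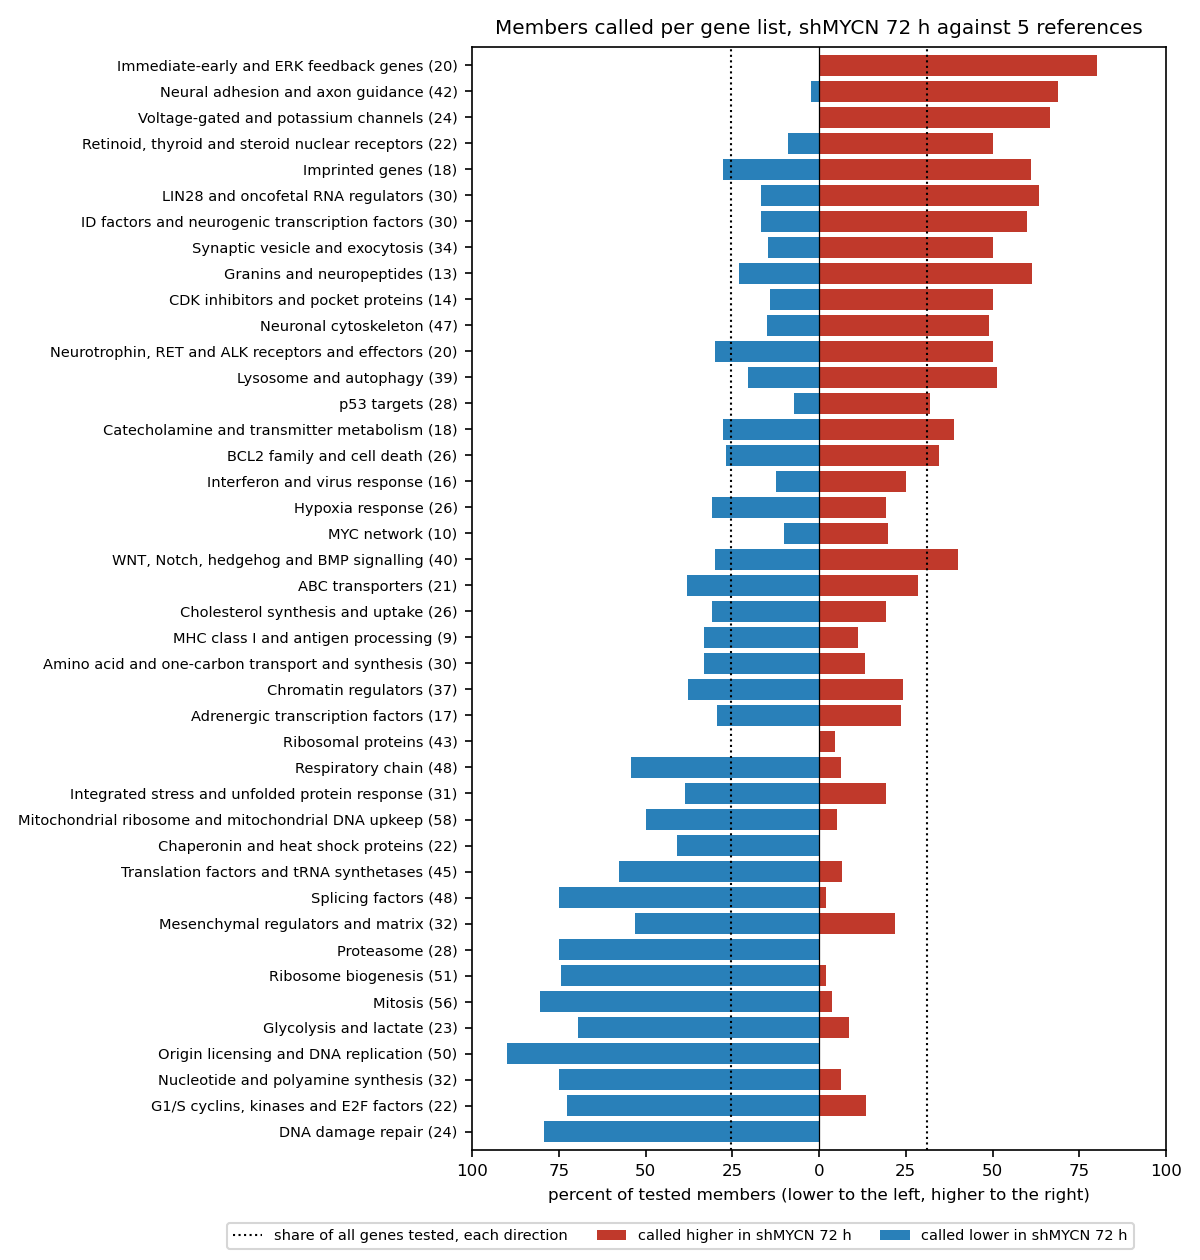
Percent of tested members of each gene list called higher (right, red) and lower (left, blue) in shMYCN 72 h against the 5 references, with the number tested in parentheses and dotted lines at the shares of all genes (31.0 percent higher, 25.4 percent lower). Lists run by median log2 fold change, from immediate-early and ERK feedback genes at the top to DNA damage repair at the bottom, and lists of fewer than 9 tested genes are not drawn. The lists were chosen with earlier results of these data known, so the shares are a description.

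The combined list of ID factors and neurogenic transcription factors held more rises than falls, while ID1 and ID3 fell. Of its 30 members, 18 rose and 5 fell (60 and 16.7 percent, against 31.0 and 25.4 percent of all genes, median 0.35). Against the 72 hour control array alone the median was 0.21, and that array exceeded the arrays without virus by a median of 0.18. MYT1L, a zinc finger factor that represses non-neuronal genes, had 130.2 and 112, against 23.3 and 20.3 without virus and 18.6, 19.3 and 13.8 with control virus at 24, 48 and 72 hours (log2 1.97 ± 0.13, limma adjusted p = 8.48e-08). Its relative MYT1 had 350.1 and 445, against 88.4 to 114.5 (log2 1.82 ± 0.11), and HEY1, a target of Notch that represses neurogenic genes, had 286 and 245, against 50.9 to 64.7 (log2 1.90 ± 0.10). The kinase gene HIPK2 fell (log2 -1.09 ± 0.06).

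Neuronal cytoskeleton genes had 23 of 47 members higher and 7 lower (48.9 and 14.9 percent, against 31.0 and 25.4 percent of all genes, median 0.20). Under median scaling 19 were higher and 12 lower, where 2579 of all 11865 genes were higher and 3925 lower. MAP2, the microtubule protein of dendrites, had 2509 and 2290.1, against 1021 and 956 without virus and 928, 926 and 1029.5 with control virus at 24, 48 and 72 hours (log2 1.29 ± 0.06, limma adjusted p = 8.49e-09). STMN1, a stathmin abundant in dividing cells, had 847.5 and 915, against 1886 to 2184.5 (log2 -1.20 ± 0.07), opposite to its relative STMN2. DPYSL2, which carries tubulin into growing axons, also fell, with 1415 and 1315.5, against 3009.6 to 3335 (log2 -1.22 ± 0.06).

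Neural adhesion and axon guidance genes rose in the largest share of the neuronal lists drawn. Of 42 tested, 29 rose and 1 fell (69 and 2.38 percent, against 31.0 and 25.4 percent of all genes, median 0.48). Their median was 0.41 against the 72 hour control array alone. CNTN1, an immunoglobulin adhesion protein of axons, had 565.5 and 528, against 194 and 192.5 without virus and 174, 152 and 154 with control virus at 24, 48 and 72 hours (log2 1.58 ± 0.10). UNC5C, a netrin receptor, had 369 and 377, against 119 to 147 (log2 1.40 ± 0.08), ALCAM gave 1.13 ± 0.09 and L1CAM, which supports axon growth, 1.02 ± 0.07. The member that fell was the cadherin gene CDH11, with 95.1 and 87.8, against 187.5 to 229 (log2 -1.09 ± 0.08).

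Synaptic vesicle and channel lists held more rises than falls. Of 34 vesicle and exocytosis genes, 17 rose and 5 fell (50 and 14.7 percent, against 31.0 and 25.4 percent of all genes, median 0.34). SYT4, a synaptotagmin of dense-core vesicles, had 767 and 824, against 219 and 217 without virus and 212, 225 and 263 with control virus at 24, 48 and 72 hours (log2 1.74 ± 0.08, limma adjusted p = 4.14e-09), with SYT13 at 1.22 ± 0.07, SCAMP5 at 0.73 ± 0.07 and SYT11 at 0.61 ± 0.06. NSF, the ATPase that takes SNARE complexes apart, fell, with 503 and 524, against 1261 to 1333 (log2 -1.32 ± 0.05). Of 24 voltage-gated and potassium channel genes, 16 rose and 0 fell (66.7 and 0 percent, beside the same shares of all genes, median 0.41). CACNA2D1, an auxiliary calcium channel subunit, had 1073 and 948, against 402 to 477 (log2 1.13 ± 0.08), and the sodium channel gene SCN3A had 266 and 205, against 81.6 to 116 (log2 1.16 ± 0.13). The potassium channel genes KCNK10, KCNH7 and KCNH2 gave 0.94, 0.83 and 0.43.

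Genes of the sympathetic transmitter phenotype split. Of catecholamine and transmitter metabolism 38.9 percent rose and 27.8 percent fell, beside 31.0 and 25.4 percent of all genes. Of 18 members of catecholamine and transmitter metabolism, 7 rose and 5 fell (median 0.12), and 6 and 6 under median scaling. DDC, which makes dopamine from its precursor, had 450.4 and 410.5, against 235 and 242 without virus and 212, 212 and 166 with control virus at 24, 48 and 72 hours (log2 0.97 ± 0.11). DBH, which turns dopamine into noradrenaline, had 88.5 and 85.9, against 199 and 158 without virus and 171, 217 and 205 with control virus at 24, 48 and 72 hours (log2 -0.99 ± 0.11). SLC6A2, the noradrenaline transporter, had 86.9 and 89.0, against 364 and 386 without virus and 437, 367 and 217.5 with control virus at 24, 48 and 72 hours (log2 -1.80 ± 0.18), and its 72 hour control array stood below the other references. ALDH5A1, which acts after ABAT in GABA breakdown, rose (0.62 ± 0.08). Of 13 granin and neuropeptide genes, 8 rose and 3 fell (61.5 and 23.1 percent, beside the same shares of all genes, median 0.31). The secretory granule genes CHGB (0.69 ± 0.08) and SCG3 (0.76 ± 0.08) and the peptide amidating enzyme gene PAM (0.85 ± 0.08) rose, while the processing enzyme CPE had 198 and 184, against 525 to 583.5 (log2 -1.46 ± 0.06), and the galanin gene GAL fell (-0.46 ± 0.07). GAL did not pass against the 72 hour control array alone (-0.30 ± 0.12, limma adjusted p = 0.0719).

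The adrenergic transcription factors, which hold the identity of these tumour cells, moved in both directions. Of 17 tested, 4 rose and 5 fell (median -0.06), close to the shares of all genes. LMO3, a LIM-only cofactor, had 176 and 181, against 42.6 to 53.2 (log2 1.58 ± 0.10), KLF13 gave 0.72 ± 0.08 and MEIS1 0.32 ± 0.06. HAND1 had 659.9 and 679, against 1037 to 1183 (log2 -0.73 ± 0.07), and EYA1 gave -0.76 ± 0.06.

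As a check of the labelled cell type, 11 noradrenergic markers on the array had summed signals of 7610.3 and 7979.6 on the arrays labelled shMYCN, against 7143.7 to 8548.7 on the references. The ranges overlapped, and of 10 tested GATA2, ISL1, TBX2 and DBH were lower, DDC, CHGA and CHGB higher, and GATA3, PHOX2A and HAND2 did not pass. TH, the first enzyme of catecholamine synthesis and a defining marker, had a mean under the dim filter and was not tested, with 21.6 and 25.4 against 0.6 to 6.6. Schwann and glial markers had sums of 42.8 and 49.8 against 42.5 to 65.9, with 7 of 8 under the filter level in both groups, and leukocyte markers 92.5 and 106.9 against 100.2 to 162.4, with 12 of 15 under it. Fibroblast and endothelial markers had sums of 863.8 and 871.4 against 490.7 to 563.0, most of it COL1A1 at 659 and 649 against 292 to 354, while 8 of 13 were under the filter level in both groups. Of 5 of these tested, COL1A1 and PDGFRB rose, and the PDGFRB call (0.39 ± 0.15) was lost under 10 alternatives. Of 3 leukocyte markers tested, 0 passed by limma, and 0 Schwann markers could be tested. The part of other cell types in the results was not tested.

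Receptors for neurotrophins and related factors were mixed. Of 20 tested, 10 rose and 6 fell (50 and 30 percent, against 31.0 and 25.4 percent of all genes, median 0.19). Under median scaling 5 rose and 7 fell, where 2579 of all 11865 genes rose and 3925 fell. Their median was 0.13 against the 72 hour control array alone. GFRA2, the co-receptor for neurturin, had 834 and 779, against 1380.1 to 1795 (log2 -0.98 ± 0.09), and the receptor kinase genes KIT (-0.81 ± 0.12) and NTRK3 (-1.10 ± 0.16) fell. The growth factor gene MDK rose (0.35 ± 0.06), and IRS1 rose (0.61 ± 0.11) but lost its call with the mean of all probe sets (0.07).

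Immediate-early and ERK feedback genes, which are switched on by growth factor signalling, had the highest share of members higher. Of 20 tested, 16 rose and 0 fell (80 and 0 percent, against 31.0 and 25.4 percent of all genes, median 0.66). SPRY2, a feedback inhibitor of receptor kinases, had 195 and 149, against 32.7 and 38.5 without virus and 42.5, 48.1 and 53.5 with control virus at 24, 48 and 72 hours (log2 1.67 ± 0.14, limma adjusted p = 9.19e-07). DUSP6, the phosphatase of ERK, had 188 and 206, against 40.7 and 41.4 without virus and 50.4, 67.0 and 81.0 with control virus at 24, 48 and 72 hours (log2 1.59 ± 0.18). ETV1, an ETS factor downstream of ERK, had 193 and 181, against 35.9 and 39.0 without virus and 36.5, 62.3 and 71.8 with control virus at 24, 48 and 72 hours (log2 1.68 ± 0.19), with its relative ETV5 at 1.30 ± 0.16 and JUND at 0.48 ± 0.06. In these 5 genes the control virus signal was also higher at later hours, and the 72 hour control array exceeded the arrays without virus by a median of 0.25 on the log2 scale over the list. Against that control array, the arrays labelled shMYCN were higher by 1.42 for SPRY2, 1.13 for DUSP6 and 1.21 for ETV1, and 14 of the 20 passed.

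Nuclear receptor, imprinted and RNA regulator lists held more rises than falls. Of 22 genes of retinoid, thyroid and steroid reception, 11 rose and 2 fell (median 0.39). That is 50 and 9.09 percent, beside 31.0 and 25.4 percent of all genes. Against the 72 hour control array alone the median was 0.33. Beside CRABP2, THRB, a thyroid hormone receptor, gave 0.86 ± 0.12 and the clock-linked repressor NR1D2 0.72 ± 0.07, while NR2F6 had 48.2 and 40.6, against 199.5 to 294 (log2 -1.99 ± 0.13), and the glucocorticoid receptor gene NR3C1 gave -1.05 ± 0.11. Of 18 imprinted genes, 11 rose and 5 fell (61.1 and 27.8 percent, beside the same shares of all genes, median 0.38). Median scaling gave 8 higher, and the arrays without virus alone as reference gave 7 higher (median 0.24). Beside CDKN1C, NAP1L5 rose (0.82 ± 0.07), whereas MEST had 504 and 489, against 1203 to 1546.5 (log2 -1.40 ± 0.10), and PEG10 (-1.38 ± 0.08) and GRB10 (-0.92 ± 0.07) also fell. Of 30 LIN28 and RNA regulator genes, 19 rose and 5 fell (63.3 and 16.7 percent, beside the same shares of all genes, median 0.37). LIN28B, which blocks the let-7 microRNAs, had 1329 and 1193, against 579 and 591 without virus and 585, 574 and 617 with control virus at 24, 48 and 72 hours (log2 1.08 ± 0.06, limma adjusted p = 1.88e-08). The neuronal splicing regulators CELF3 and RBFOX2 rose (2.07 ± 0.13 and 0.92 ± 0.07), and XPO5, which exports microRNA precursors, and AGO1, which carries mature microRNAs, fell (-1.47 ± 0.07 and -1.14 ± 0.07).

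Mesenchymal regulators and matrix genes, which mark the less neuronal state of neuroblastoma, had 17 of 32 members lower and 7 higher (median -0.30). That is 53.1 and 21.9 percent, beside 25.4 and 31.0 percent of all genes. SNAI2, a repressor of epithelial genes, had 175 and 181, against 483 and 516 without virus and 515, 622 and 669 with control virus at 24, 48 and 72 hours (log2 -1.56 ± 0.11). ITGA4, an integrin subunit, gave -1.68 ± 0.08, the basement membrane collagen COL4A1 -1.17 ± 0.08 and ANXA2 -0.99 ± 0.06. COL1A1 moved the other way (1.00 ± 0.07).

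Stress, death and turnover lists held changes of both signs. Of p53 targets 32.1 percent rose and 7.14 percent fell, beside 31.0 and 25.4 percent of all genes, so their rises were near that share. Of BCL2 family and cell death genes 34.6 percent rose and 26.9 percent fell, also near the shares of all genes. Of 28 p53 targets, 9 rose and 2 fell (median 0.14), with 4 higher and a median of 0.06 against the 72 hour control array alone. TP53INP1 had 679 and 522, against 212 to 292 (log2 1.28 ± 0.12), GADD45A gave 1.07 ± 0.11, ZMAT3 0.70 ± 0.08, CCNG1 0.42 ± 0.06 and CYFIP2 0.45 ± 0.08. CYFIP2 did not pass against the 72 hour control array alone (0.29 ± 0.14, limma adjusted p = 0.136). Of 26 BCL2 family and cell death genes, 9 rose and 7 fell. Median scaling turned this to 4 and 9, and turned the balance of all genes as well. The pro-survival gene MCL1 had 1053 and 1020.0, against 1872 to 2081 (log2 -0.91 ± 0.06), the pro-death BCL2L11 rose (0.95 ± 0.09) and DIABLO (-0.84 ± 0.06), BID (-0.49 ± 0.06) and BCL2L12 (-1.18 ± 0.14) fell.

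Of 31 integrated stress and unfolded protein genes, 6 rose and 12 fell (19.4 and 38.7 percent, against 31.0 and 25.4 percent of all genes). The growth factor MANF (-1.05 ± 0.05) and CEBPB (-0.95 ± 0.07) fell, and DDIT4, an inhibitor of mTOR, had 825 and 1004, against 346 to 465 (log2 1.21 ± 0.10), with TRIB3 at 1.08 ± 0.12 and DNAJB9 at 0.74 ± 0.06. Of 39 lysosome and autophagy genes, 20 rose and 8 fell (51.3 and 20.5 percent, against 31.0 and 25.4 percent of all genes, median 0.18). Their median was 0.20 against the 72 hour control array alone. This list holds both GABARAP and ATP6V1D, and the lysosomal membrane protein LAMP2 (-1.07 ± 0.07) and the autophagy gene WIPI2 (-0.57 ± 0.06) also fell, while the pump subunit ATP6V1H rose (0.62 ± 0.06).

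Metabolic and signalling lists had no single direction. Among cholesterol and among hypoxia genes, 19.2 percent rose and 30.8 percent fell, beside 31.0 and 25.4 percent of all genes. The shares were 13.3 and 33.3 percent for amino acid and one-carbon genes and 40 and 30 percent for the WNT list. Of 26 cholesterol genes, 5 rose and 8 fell, and the balance turned with the reference: 7 higher and 3 lower (median 0.10) against the arrays without virus alone, and 1 higher and 7 lower (median -0.13) against the 72 hour control array alone, which itself exceeded the arrays without virus by a median of 0.22. Named members were HMGCS1 (-1.21 ± 0.10), DHCR7 (-1.12 ± 0.12) and SCAP (-0.94 ± 0.08) lower and INSIG1 (0.58 ± 0.09) and MSMO1 (0.37 ± 0.08) higher, the last not against the 72 hour control array alone (0.21 ± 0.11, limma adjusted p = 0.159). Of 26 hypoxia genes, 5 rose and 8 fell, with PFKFB3 (-1.03 ± 0.09), P4HA1 (-0.87 ± 0.09) and LOX (-0.61 ± 0.09) lower and ALDOC (1.01 ± 0.11) higher. Of 30 amino acid and one-carbon genes, 4 rose and 10 fell, and quantile normalization gave 9 of each. PHGDH, the first enzyme of serine synthesis, had 569.5 and 616, against 1470.3 to 1582 (log2 -1.34 ± 0.06), and PYCR1 (-1.15 ± 0.08), SLC7A6 (-0.82 ± 0.07), SHMT2 (-0.68 ± 0.07) and MTHFD1 (-0.53 ± 0.06) fell. Of 40 WNT, Notch, hedgehog and BMP genes, 16 rose and 12 fell. Median scaling turned this to 10 and 13, and turned the balance of all genes as well. NOTCH3 (-1.04 ± 0.08) and TCF7L2 (136 and 114, against 238 to 293) were lower. TGFB2 (1.11 ± 0.10), DLK1 (1.06 ± 0.10) and DKK3 (0.76 ± 0.07) were higher.

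Of 37 chromatin regulators, 9 rose and 14 fell (24.3 and 37.8 percent, against 31.0 and 25.4 percent of all genes). For the ABC transporters below the shares were 28.6 and 38.1 percent. The deacetylase genes HDAC3 and HDAC2 fell, HDAC3 with 119.7 and 108, against 394.5 to 419 (log2 -1.69 ± 0.06), and HDAC2 at -0.94 ± 0.05. KDM6B, which removes a repressive histone mark, had 455 and 504, against 147 to 186 (log2 1.44 ± 0.09), and the DNA methylation genes DNMT3B (1.21 ± 0.08) and TET3 (0.71 ± 0.05) rose. Of 21 ABC transporters, 6 rose and 8 fell, with ABCC1, a drug efflux pump, at -0.94 ± 0.06, ABCE1 at -0.47 ± 0.06, ABCD3 at -0.48 ± 0.07, ABCC5 at 0.76 ± 0.08 and ABCG1 at 1.09 ± 0.14. Against the 72 hour control array alone ABCD3 differed by -0.46 ± 0.17, which did not pass (limma adjusted p = 0.0523).

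Of 9 antigen presentation genes, 1 rose and 3 fell (11.1 and 33.3 percent, against 31.0 and 25.4 percent of all genes). For the interferon response genes below the shares were 25 and 12.5 percent. B2M, the invariant chain of MHC class I, had 1576 and 1489.9, against 2123 to 2333 (log2 -0.52 ± 0.06), and PSMB10 (-0.47 ± 0.09) and PDIA3 (-0.29 ± 0.06) fell, but did not pass against the 72 hour control array alone, at -0.42 ± 0.16 and -0.19 ± 0.13. TAPBP rose (0.64 ± 0.17) but not without array A (limma adjusted p = 0.0897). Of 16 interferon response genes, 4 rose and 2 fell, and 1 rose and 2 fell against the 72 hour control array alone, where the median was -0.04, against 0.09 with all 5 references. IFIT5 had 162 and 158, against 467 to 529 (log2 -1.56 ± 0.06), USP18 gave -0.87 ± 0.15 and IFI44 0.72 ± 0.14. IFI6 (0.57 ± 0.12) and RIGI (0.56 ± 0.14) did not pass against the 72 hour control array alone, at 0.37 ± 0.17 and 0.50 ± 0.21, and RIGI did not pass without array B (0.35 ± 0.16, limma adjusted p = 0.097).

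The 72 hour state was set beside the earlier hours of the same hairpin. Among the genes that rose at 72 hours, the median difference from the references was 0.12 at 24 hours, 0.30 at 48 hours and 0.48 at 72 hours. Among those that fell, it was -0.07 at 24 hours, -0.25 at 48 hours and -0.46 at 72 hours. These genes were selected at 72 hours, so the medians describe them and test nothing. Between 72 and 24 hours within the shMYCN arrays, a fit of all 11 arrays called 4329 genes (36.5 percent), 2157 higher (18.2 percent) and 2172 lower (18.3 percent). Of the 3674 genes that rose, 2069 were also higher at 72 than at 24 hours, and of the 3016 that fell, 2026 were also lower. Both comparisons use the same 2 arrays of 72 hours, so the choice of genes favours agreement in direction. In the opposite direction, the fatty acid elongase gene ELOVL6 was higher than the references at 72 hours (log2 0.18) but lower than at 24 hours, and the cilium gene TCTN2 was lower than the references (-0.38) but higher than at 24 hours. These 2 were named after their values were seen.

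Falls differed in when they began. OIP5 had differences from the references of -1.46, -1.75 and -2.38 after 24, 48 and 72 hours, and EPDR1 of -1.44, -1.79 and -2.21 after 24, 48 and 72 hours. RAP1A gave -1.12, -2.05 and -2.35 after 24, 48 and 72 hours, and COX5B gave -1.07, -1.82 and -2.18 after 24, 48 and 72 hours. These 4 were already more than 1 below the references at 24 hours. NT5DC2, by contrast, gave -0.08, -1.03 and -2.35 after 24, 48 and 72 hours, and RRM2 gave -0.22, -0.83 and -2.13 after 24, 48 and 72 hours, so that most of their difference arose after 24 hours. STMN2 gave 0.55, 1.89 and 3.46 after 24, 48 and 72 hours.

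**Figure D5:**
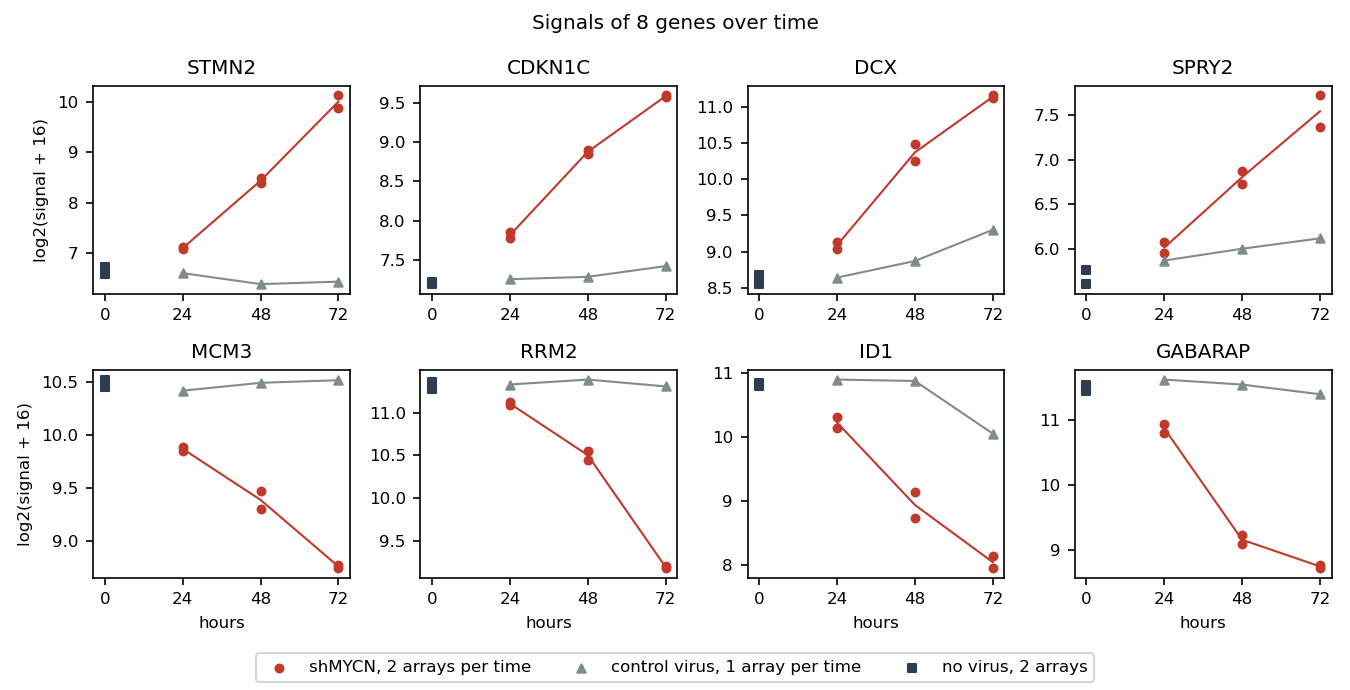
Signals of 8 genes as log2(signal + 16) by hours, with shMYCN arrays as circles (2 per time, line through their mean), control virus as triangles (1 per time) and no virus as squares at 0 hours. STMN2, CDKN1C, DCX and SPRY2 are highest and MCM3, RRM2, ID1 and GABARAP lowest at 72 hours, and the control virus array of 72 hours lies toward the shMYCN arrays for DCX, SPRY2 and ID1.

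Late genes were taken as those called at 72 hours whose 24 hour arrays both lay within the reference range and whose 72 hour against 24 hour test passed. This gave 747 higher and 696 lower (6.3 and 5.87 percent of genes tested). Since this choice used the 24 hour values, those are given as a description. The reference range includes the 72 hour control array, which widens it for genes such as DCX, PHLDA1, ID1, SLC6A2 and MARCHF11. Such genes meet the rule more easily. ARRDC3, an arrestin-like adaptor, had 383 and 422, against 71.6 and 91.9 without virus and 83.2, 86.6 and 83.5 with control virus at 24, 48 and 72 hours (log2 2.08 ± 0.09). Its differences were 0.03, 1.26 and 2.08 after 24, 48 and 72 hours. PHLDA1 had 1129.8 and 1174, against 254 and 261.5 without virus and 238, 339 and 513 with control virus at 24, 48 and 72 hours (log2 1.85 ± 0.21), with the later control arrays above the arrays without virus. The histone gene H2AC6 (2.00) and the choline transporter-like gene SLC44A5 (1.97) were the other large late rises beside PMEL, DCX, SPOCK1 and CRABP2.

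Large late falls were led by ID1. ITPKB, a kinase of inositol phosphates, had 171.5 and 190.4, against 603 and 678 without virus and 658, 576 and 555 with control virus at 24, 48 and 72 hours (log2 -1.67 ± 0.08), with 0.04, -0.87 and -1.67 after 24, 48 and 72 hours. AK4, a mitochondrial adenylate kinase, had 155 and 127, against 448 and 434 without virus and 426, 491 and 547 with control virus at 24, 48 and 72 hours (log2 -1.63 ± 0.10), and here the 72 hour control array was the highest reference. SAMD11 (-2.08), the calcium-binding TESC (-1.87), the procollagen protease gene ADAMTS2 (-1.84), SLC6A2 (-1.80) and the ubiquitin ligase gene MARCHF11 (-1.74) were the others. MARCHF11 had 138 and 142, against 627 and 667 without virus and 696, 412 and 272 with control virus at 24, 48 and 72 hours, so its control virus signals were lower at each later hour.

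The 72 hour control array was also set against the other references. It lay outside the range of the other 4 references, on the same side as both arrays labelled shMYCN, for 1229 of the genes that rose (33.5 percent) and 888 of those that fell (29.4 percent), beside 2714 of all genes tested (22.9 percent). That array is itself among the 5 references, so these shares are a description. The rule also requires both arrays labelled shMYCN to lie outside the other 4 references. Called genes mostly meet this by selection, since 6514 of the 6690 lay outside all 5. The share of all genes is therefore not a like baseline. Among the leading genes this held for PMEL, ADGRG1, DCX, CDKN1C and SPOCK1 on the higher side and GABARAP, ID3, NDUFB2, ID1 and PPP4C on the lower. The size differed between them. The control array exceeded the arrays without virus by 0.70 for PMEL, 0.55 for ADGRG1, 0.68 for DCX and 0.22 for CDKN1C on the log2 scale, and the arrays labelled shMYCN exceeded that control by 2.08, 2.12, 1.84 and 2.16. For GABARAP and NDUFB2 the control array differed from the arrays without virus by -0.10 and -0.06, against -0.90 for ID3 and -0.77 for ID1. Over all genes that rose, the median difference of the control array from the arrays without virus was 0.03, and over all that fell -0.02. With 1 control array at 72 hours these shifts have no test.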

How the data were processed

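Total RNA of IMR32 cells was measured on Affymetrix U133 Plus 2 arrays. The deposited values are linear signal intensities, made with MAS5 in GCOS per the submitters' processing notes, and their trimmed mean was the same on every array. The 2 shMYCN arrays of 72 hours were compared with 5 reference arrays as 1 group. Signals were taken as log2(signal + 16). Of 54675 probe sets, 41097 had 1 gene symbol in GEO's platform annotation, updated by Entrez ID through RefSeq (GRCh38.p14), 1801 had several and 11777 none. The brightest probe set stood for each of 19775 genes and the dimmest 40 percent were left out, at a signal of about 14.9, leaving 11865. limma 3.58.1 in R 4.3.3 (lmFit, eBayes with trend, 5 residual degrees of freedom) gave p-values, adjusted by Benjamini-Hochberg over all genes, at 0.05. For MYCN, each probe set was tested among all named ones, with no dim filter. The code of the fit was run on simulated data with independent noise and few changed genes. That setting differs from these data and does not measure the error rate here. Errors are SE. The array number limits the precision. Genes named were MYCN, the MYC network, the 15 largest changes each way with no overlap, up to 5 members of each list by p, the 8 largest late changes each way and the 5 largest each way shared with the 72 hour control. Members and lists were chosen with earlier results of these data known. Python 3.11.15 and matplotlib 3.10.9 made counts and figures.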

Additional observations from a re-analysis of the deposited data

Results flagged for a closer look

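Among the 5 reference arrays, 1 array stood far from the others for 3 of the 41 leading genes examined, by the ratio of its gap to the whole range (critical value 0.71 for 5 arrays). Chance alone exceeds that value in about 5 percent of groups. For ID1 the ratio was 0.881, with the 72 hour control array at 1047 against 1769 to 1898 on the other references. For RAP1A it was 0.764, with the 48 hour control array at 1104 against 1254 to 1304. For SLC6A2 it was 0.735, with the 72 hour control array at 217.5 against 364 to 437. In all 3 genes both arrays labelled shMYCN were below that array as well.

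The shMYCN arrays of 72 hours differed from those of 24 hours by limma's test in the direction already called against the references for 2069 genes that rose and 2026 that fell. Since both comparisons use the same arrays of 72 hours, the choice of genes favours that agreement. In the opposite direction there was 1 gene of each kind. ELOVL6 had 425 and 428 at 72 hours, 506 and 517 at 24 hours and 361 to 387 in the references (72 minus 24 hours -0.25 ± 0.08, limma adjusted p = 0.0275). TCTN2 had 31.0 and 36.0 at 72 hours, 15 and 23.4 at 24 hours and 41.8 to 56.9 in the references (0.50 ± 0.16, limma adjusted p = 0.0276).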

How the results depend on the processing

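The 6690 calls ranged from 5296 (without shMYCN array B) to 6763 (without the 72 hour control array) when 1 array was left out, and were 5389 without shMYCN array A. With the 72 hour control array as the only reference, which rests on fewer arrays, 4028 genes passed, 2157 higher and 1871 lower. Counts of at least 2-fold changes (731, with 375 higher and 356 lower) moved with the offset, to 1105 (614 higher) at 1 and to 336 (137 higher, 199 lower) at 64. The mean of all probe sets gave 396 (194 higher, 202 lower), and leaving out the dimmest 60 percent gave 208 higher. MYCN probe sets called higher (2) became 1, with 1 lower, against the arrays without virus alone, and 0 against the 72 hour control alone, where their differences were 0.93 ± 0.31 and 0.68 ± 0.31. Genes further from the references at 72 than at 24 hours (4095) numbered 2573 to 2745 without 1 shMYCN array of either time: 2573 and 2716 without array A and B of 24 hours, 2692 and 2745 without array A and B of 72 hours. Of 248 named genes, 225 changed no call under any alternative, and none changed direction with a call. Little of the A minus B difference was shared between hours (correlations of -0.05 to 0.10). This cannot show whether the letters A and B mark paired series. A fit with the letters as a replicate block called 6480 genes (3551 higher, 2929 lower). Arrays give no read depth, and genes near a signal of 14.9 are the least certain.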
